A study of Homo sapiens with 24 samples.

Results

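The human mitochondrial genome, chrM in the GRCh38 assembly, holds 37 annotated genes, and their RNA was followed in MIA PaCa-2 cells, an established human pancreatic carcinoma line. The members were taken as every row of the count table whose Ensembl identifier has a symbol starting with MT- on chrM, which gave 13 mRNA genes, 2 rRNA genes and 22 tRNA genes, or 37 of 60675 identifiers. CTRL cells carried the pCW57 Tet-On construct lacking a CEBPD cDNA, plus mCherry from LeGO-C2. C/EBPδ-inducible cells carried pCW57 with the CEBPD cDNA, plus mVenus from LeGO-V2, and were a mixture of 3 clones. Each line was sampled at 0, 8, 24 and 48 h of 2 µg/mL doxycycline, with 3 wells at each time, so that 8 groups and 24 libraries were available. The cells at 0 h are used as untreated, as in the methods of the study, although the labels list the same dose for them. CTRL cells show what time in doxycycline does without the CEBPD cDNA, and time in culture and time in doxycycline cannot be told apart in either line. The replicates were wells of a line, so the p-values measure the spread between wells only.

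The mitochondrial genome is transcribed from both strands into long precursors, and tRNA sequences lie between most of the mRNA and rRNA sequences and are cut out of the precursor to free the RNAs beside them. All mitochondrial mRNAs except MT-ND6 are read in the same direction, and their products are subunits of respiratory chain complexes I, III and IV and of ATP synthase. They are translated on mitochondrial ribosomes, which contain both mitochondrial rRNAs, and doxycycline belongs to the tetracyclines, a class of antibiotics known to inhibit those ribosomes.

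Among the tRNA genes, MT-TF (tRNA for phenylalanine, chrM:577-647) and MT-TT (tRNA for threonine, chrM:15888-15953) are shown, the first for its place at the start of the genes read in the direction of most mRNAs and the second because it was called lower at every time in both lines, and MT-TK (lysine, chrM:8295-8364) and MT-TN (asparagine, chrM:5657-5729, minus strand) because they had 0 counts in all 24 libraries. The gene is in capitals and its flanking bases are in lower case, read 5′ to 3′ on the strand of the gene, and the printed windows are chrM:562-662, chrM:15873-15968, chrM:8280-8379 and chrM:5642-5744 in GRCh38.
MT-TF: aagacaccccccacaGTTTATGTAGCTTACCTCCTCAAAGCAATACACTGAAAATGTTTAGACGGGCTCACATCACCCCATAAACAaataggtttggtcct
MT-TT: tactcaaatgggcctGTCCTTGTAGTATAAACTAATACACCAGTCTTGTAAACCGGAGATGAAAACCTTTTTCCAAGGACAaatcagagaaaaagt
MT-TK: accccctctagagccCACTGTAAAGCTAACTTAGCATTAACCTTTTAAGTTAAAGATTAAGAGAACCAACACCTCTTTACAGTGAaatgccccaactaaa
MT-TN: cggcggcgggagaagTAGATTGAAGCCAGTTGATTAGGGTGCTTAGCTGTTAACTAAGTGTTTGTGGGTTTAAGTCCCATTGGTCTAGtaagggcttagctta
MT-TF is the first gene in the direction of most mRNAs and lies directly before the rRNA gene MT-RNR1 (chrM:648-1601), while MT-TT follows MT-CYB (chrM:14747-15887) with no base between them. A read counted on a tRNA gene may come from a precursor or from a cut tRNA, and the counts cannot tell them apart.

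Neighbouring mRNA genes share bases on 1 strand, so that a read inside the shared stretch belongs to both. MT-ATP8 (chrM:8366-8572) and MT-ATP6 (chrM:8527-9207) share 46 bases, and MT-ND4L (chrM:10470-10766) and MT-ND4 (chrM:10760-12137) share 7, while MT-ATP6 and MT-CO3 (chrM:9207-9990) share 1. In each window the shared bases are in capitals. They open with the ATG of the second gene, and they close with the stop codon of the first, TAG in MT-ATP8 and TAA in MT-ND4L.
MT-ATP8/MT-ATP6, chrM:8512-8587: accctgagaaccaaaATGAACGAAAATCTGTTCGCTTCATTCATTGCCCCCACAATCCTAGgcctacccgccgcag
MT-ND4L/MT-ND4, chrM:10745-10781: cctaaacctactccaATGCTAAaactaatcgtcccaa
The rule by which reads in such overlaps were counted is not given in the sources used here, and neither is the strand setting, so the values of these genes depend on it.

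Total counts per library ranged from 12731237 to 22598595, and C/EBPδ-inducible 8 h replicate 3 was the smallest. CEBPD itself was at 3.40, 3.65 and 3.59 CPM (counts scaled to library size and the TMM factor) in CTRL cells at 24 h, at 18.9, 23.4 and 22.3 CPM in untreated C/EBPδ-inducible cells and at 321, 303 and 297 CPM in them after 24 h, and its libraries at 0 h lay above all CTRL libraries. The summed level of 5 epithelial markers (KRT8, KRT18, KRT7, KRT19 and EPCAM) was 2126 to 2898 CPM over the CTRL groups and 117 to 205 CPM over the inducible groups. KRT8 alone was at 1056 to 1559.8 and 36.4 to 74.3 CPM. The 5 markers did not all go the same way. At 24 h edgeR called 3 of them lower in inducible cells and 1 higher, the low KRT7 (log2 fold change 1.22). Of the fibroblast markers COL1A2 was present, in a sum over 3 genes of 465 to 649 CPM in CTRL and 144 to 245 CPM in inducible groups. COL1A1 was low but called higher in inducible cells at 24 h, at 0.833 ± 0.148 against 0.349 ± 0.0973 CPM (log2 fold change 1.22). The endothelial gene CDH5 was low but higher in inducible cells, at 0.056, 0.0598 and 0.418 CPM in CTRL and 1.38, 1.05 and 1.69 CPM in inducible libraries at 0 h (log2 fold change 2.82) and 0.15, 0.117 and 0.158 against 2.21, 1.90 and 2.28 CPM at 48 h (log2 fold change 3.83), both called by edgeR. PECAM1, the other endothelial gene, the immune genes PTPRC and CD3E and the acinar genes PRSS1 and CPA1 were at or near 0. The part of these differences between the lines in the results was not tested, and CEBPD and the other differences between the lines cannot be told apart. In bulk RNA, fewer copies of the mitochondrial genome per cell and less RNA per copy cannot be told apart.

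The 13 mRNA genes took between 2.55% and 3.61% of all counts of a library, with a median of 2.92%. In CTRL cells the mRNA share was 3.29, 3.4 and 3.31% at 0 h, 2.65, 2.61 and 2.7% at 8 h, 2.61, 2.63 and 2.55% at 24 h and 3.61, 3.55 and 3.12% at 48 h. In C/EBPδ-inducible cells it was 3.19, 3.19 and 3.04% at 0 h, 2.88, 3.16 and 2.87% at 8 h, 2.59, 2.87 and 2.71% at 24 h and 2.81, 3.22 and 2.95% at 48 h. The CTRL libraries at 8 h and at 24 h all lay below every CTRL library at 0 h and 48 h, whereas the inducible libraries spanned a narrower range. The 22 tRNA genes together took 0.00883% to 0.00986% of counts in CTRL cells at 0 h and 0.00446% to 0.00476% at 48 h, and in C/EBPδ-inducible cells 0.00648% to 0.00700% at 0 h and 0.00375% to 0.00460% at 48 h. The 2 rRNA genes took 0.00652% to 0.623%, and the efficiency of rRNA depletion and the level of rRNA in the cells cannot be told apart.

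**Figure D1:**
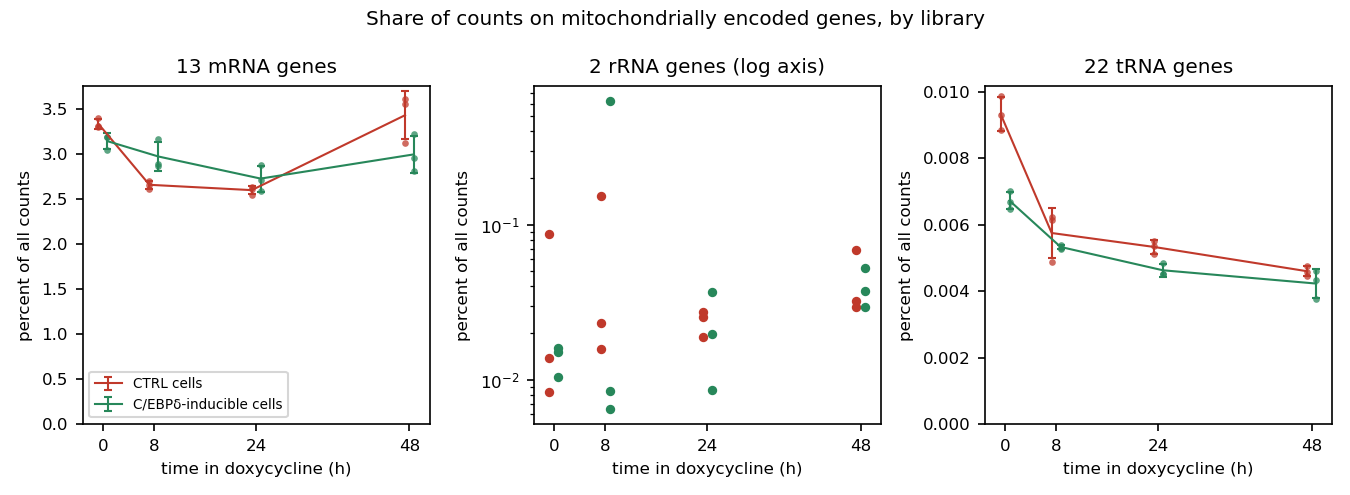
Percent of all counts on the 13 mRNA, 2 rRNA and 22 tRNA genes of chrM (y axes, the rRNA axis logarithmic) against hours in doxycycline, with 1 point per library and, for mRNA and tRNA genes, lines through group means with SD bars (n = 3). CTRL cells dip to 2.55% to 2.70% of counts on mRNA genes at 8 and 24 h, the tRNA share is lowest at 48 h in the mean of both lines, and 1 inducible library at 8 h stands at 0.623% rRNA.

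Per kb of gene length, MT-CO3 and MT-ND4 had the highest means over all libraries and MT-ND6, the only mRNA on the minus strand, the lowest. The mean over the 24 libraries was 4096 ± 546 CPM per kb for MT-CO3 (subunit III of cytochrome c oxidase), 3840.4 ± 528 for MT-ND4 (a membrane subunit of complex I) and 897 ± 196 for MT-ND6 (also complex I), each with its SD. Between them stood MT-CO2 at 3520.4 ± 383, MT-ATP6 at 3414 ± 558, MT-ND2 at 3275 ± 213, MT-ND1 at 2973 ± 423 and MT-ATP8 at 2599 ± 426 CPM per kb. The lower part of the order held MT-CO1 at 2372 ± 325, MT-CYB at 1767 ± 204, MT-ND3 at 1554 ± 200.2, MT-ND5 at 1509.9 ± 216 and MT-ND4L at 1235 ± 205 CPM per kb. Neighbours in this order differed by less than the larger of their SDs over the 24 libraries, apart from the 4 steps from MT-CO1 to MT-CYB, MT-CYB to MT-ND3, MT-ND5 to MT-ND4L and MT-ND4L to MT-ND6. With the same counts divided by the unshared length only, MT-ATP8 stood at 3341 ± 548 CPM per kb, which moves it past MT-ND1 and MT-ND2, and MT-ATP6 at 3667 ± 599, which moves it past MT-CO2. No reads were taken out for this, so both values are too high if reads in the shared bases were counted. The upper part of the order differed between groups. MT-CO3 was highest in 6 of the 8 groups, but in CTRL cells at 48 h MT-ATP6 stood at 4637 ± 385 CPM per kb (SD, n = 3), MT-ND4 at 4609 ± 367 and MT-CO3 at 4506 ± 313, within 1 SD of each other. At 48 h in inducible cells MT-ND4 at 4007 ± 334 and MT-CO3 at 3859 ± 223 CPM per kb also differed by less than their SD. MT-ND4L and MT-ND6 were the lowest pair in all 8 groups. The named tRNA genes lay far lower, from 13.6 ± 5.07 CPM per kb for MT-TQ to 185 ± 48.7 for MT-TI.

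**Figure D2:**
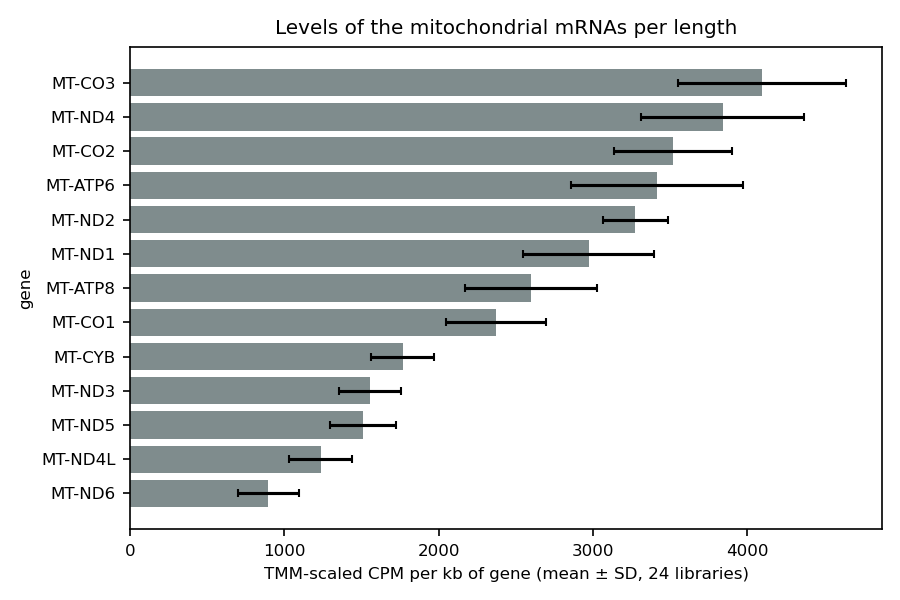
TMM-scaled CPM per kb of annotated gene length (x axis) for the 13 mitochondrial mRNAs (y axis), as bars of the mean over 24 libraries with SD. The order runs from MT-CO3 at 4096 to MT-ND6 at 897 CPM per kb, and most neighbouring bars overlap in their SD.

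In CTRL cells, most mitochondrial mRNAs fell within 8 h of doxycycline. By edgeR's quasi-likelihood test, with p-values adjusted by Benjamini-Hochberg over all genes tested and a cut-off of 0.01, 9 of 13 mRNAs were lower at 8 h than at 0 h and none was higher, in a comparison where 1.7% of all genes were called and 0.793% were called lower and 0.905% higher. The share over all genes depended on single wells. With all wells 138 genes were higher and 121 lower of 15253, and without CTRL 8 h replicate 1 these were 342 and 432 of 15427. The median log2 fold change of the 13 mRNAs was -0.36, and that of all genes 0.012. All 13 mRNAs had every 8 h library below every 0 h library, a separation that 26.7% of all genes showed in either direction.

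Among the complex I mRNAs, MT-ND1 was at 3571, 3649.9 and 3613 CPM in the 0 h CTRL libraries, at 2540.2, 2475 and 2666 CPM at 8 h, at 2495, 2469 and 2399 CPM at 24 h and at 2978, 3122 and 2496 CPM at 48 h. All later libraries lay below those at 0 h. By edgeR, MT-ND1 fell by 0.47 on the log2 scale at 8 h (SE 0.033, adjusted p = 2.14e-05), by 0.55 at 24 h (SE 0.018, adjusted p = 3.9e-14) and by 0.34 at 48 h (SE 0.06, adjusted p = 0.000685). MT-ND4, the most abundant complex I mRNA, was at 5855, 6006 and 5894 CPM at 0 h, at 4349, 4384 and 4820.1 CPM at 8 h, at 4342, 4490.0 and 4241 CPM at 24 h and at 6589.8, 6695 and 5771 CPM at 48 h. It fell by 0.36 at 8 h (SE 0.037, adjusted p = 0.000354) and by 0.44 at 24 h (SE 0.019, adjusted p = 1.98e-12) in edgeR, and its 48 h libraries overlapped those at 0 h, with a log2 fold change of 0.10 (SE 0.045, adjusted p = 0.0975). MT-ND5 and MT-ND2 also had all libraries at 8 and 24 h below those at 0 h, with edgeR log2 fold changes of -0.36 and -0.25 at 8 h, and the call of MT-ND2 was lost without any 1 of the CTRL 0 h libraries and without CTRL 8 h replicate 2.

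The 3 mRNAs of cytochrome c oxidase, complex IV, fell at 8 and 24 h. MT-CO1, its catalytic subunit, was at 4441, 4631 and 4452 CPM at 0 h, at 3251, 3094 and 3226 CPM at 8 h, at 3061, 3141 and 3005 CPM at 24 h and at 3948, 3804 and 3480.4 CPM at 48 h, so that no later library reached those at 0 h. The edgeR log2 fold changes of MT-CO1 were -0.47 (SE 0.031, adjusted p = 1.33e-05) at 8 h, -0.55 (SE 0.02, adjusted p = 1.75e-13) at 24 h and -0.27 (SE 0.041, adjusted p = 0.000198) at 48 h. MT-CO3 fell by 0.47 at 8 h and by 0.49 at 24 h, and MT-CO2 by 0.38 and 0.28, all called in every setting tried. MT-CYB, cytochrome b of complex III, was at 2317 ± 51.4 CPM (SD, n = 3) at 0 h, 1858 ± 54.2 at 8 h, 1740.4 ± 32.1 at 24 h and 2288 ± 209 at 48 h. It fell by 0.29 at 8 h, a call lost without CTRL 0 h replicate 2, and by 0.41 at 24 h (SE 0.02, adjusted p = 2.5e-11).

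The ATP synthase mRNAs were higher at 48 h than at 0 h in CTRL cells. MT-ATP6, a membrane subunit of the enzyme, was at 2396, 2388 and 2357 CPM at 0 h, at 1891, 1988 and 2112 CPM at 8 h, at 2186, 2142 and 2064 CPM at 24 h and at 3381, 3223 and 2869 CPM at 48 h. Its libraries at 8 and 24 h lay below all those at 0 h, and its 48 h libraries above them. By edgeR it fell by 0.16 at 24 h (SE 0.02, adjusted p = 1.88e-05) and rose by 0.40 at 48 h (SE 0.048, adjusted p = 3.43e-05), and its fall of 0.23 at 8 h (adjusted p = 0.00959) was lost without any 1 of the CTRL 0 h libraries or CTRL 8 h replicate 2. MT-ATP8, which overlaps it, had log2 fold changes of -0.28 at 8 h (edgeR adjusted p = 0.0248) and 0.36 (SE 0.069, adjusted p = 0.00112) at 48 h, the call at 48 h being lost without CTRL 0 h replicate 1.

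At 24 h in CTRL cells 11 of 13 mRNAs were lower by edgeR and none was higher, where 6.06% of all genes were called and 3.25% were called lower. The libraries of 11 mRNAs lay below those at 0 h without overlap, where 28.6% of all genes separated. MT-ND3 and MT-ATP8 were not called, with log2 fold changes of -0.03 (edgeR adjusted p = 0.757) and -0.15 (adjusted p = 0.0216). At 48 h 3 mRNAs were lower, MT-ND1, MT-CO1 and MT-ND6, and 2 were higher, MT-ATP6 and MT-ATP8, where 30% of all genes were called, 15.2% higher and 14.7% lower, with a median of 0.01 for the 13 mRNAs. Over all tested members, 11 of 28 were called at 8 h, 18 of 29 at 24 h and 15 of 29 at 48 h. Leaving out CTRL 0 h replicate 2 reduced the count at 8 h to 7, and removing the filter on low counts raised it to 21.

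**Figure D3:**
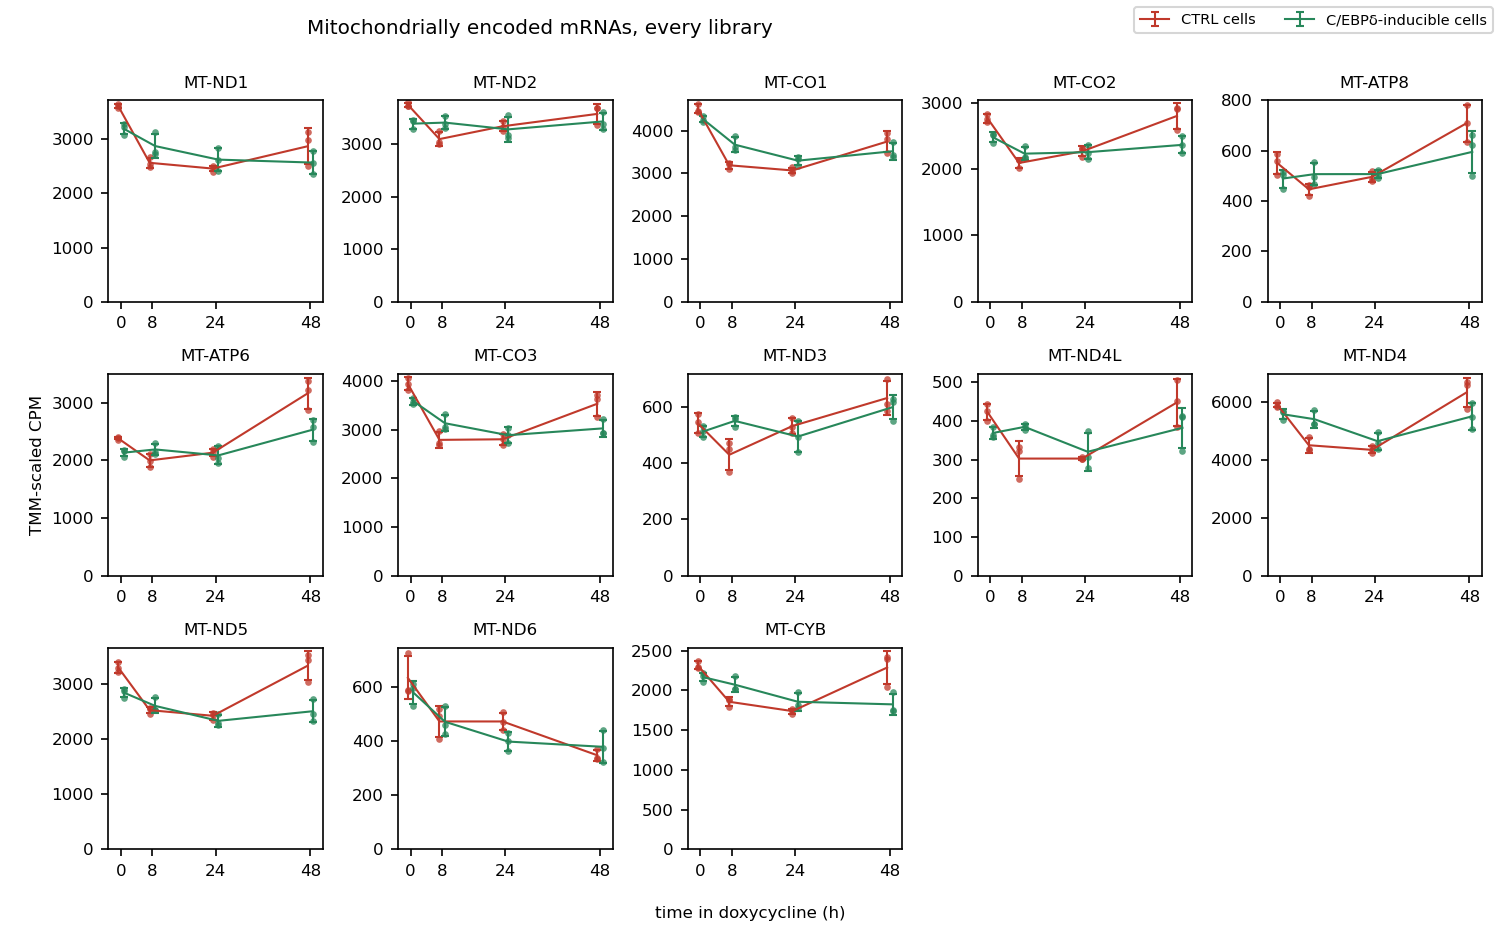
TMM-scaled CPM (y axes, from 0) of the 13 mitochondrial mRNAs against hours in doxycycline, with 1 point per library and lines through group means with SD bars (n = 3 per group). Most mRNAs dip at 8 and 24 h in CTRL cells, and MT-ND6 falls from 635 ± 79.3 to 349 ± 20 CPM in CTRL cells and from 581 ± 42.5 to 380.1 ± 60.0 CPM in C/EBPδ-inducible cells.

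In C/EBPδ-inducible cells the median change of the mRNAs was nearer 0 at 8 h. At that time against 0 h, 7 of 13 mRNAs were lower by edgeR and none was higher, but 30.5% of all genes were called in that comparison and 15.8% were called lower. For 4 mRNAs the 8 h libraries lay below all 0 h libraries, where 49.7% of all genes separated. The median log2 fold change of the mRNAs was -0.07, beside -0.006 for all genes. MT-ND1 was at 3214, 3282 and 3073 CPM at 0 h, 2752, 3130.1 and 2725 at 8 h, 2409, 2835 and 2614 at 24 h and 2358, 2783 and 2553 at 48 h. Its libraries at 8 h overlapped those at 0 h, and those at 24 and 48 h lay below them, with edgeR log2 fold changes of -0.16 (SE 0.031, adjusted p = 0.000264), -0.28 (SE 0.036, adjusted p = 2.16e-06) and -0.33 (SE 0.036, adjusted p = 3.44e-08). DESeq2 did not call the change of MT-ND1 at 8 h.

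MT-CO1 in these cells was at 4255, 4334 and 4205 CPM at 0 h, at 3539, 3865 and 3611 CPM at 8 h, at 3179, 3336 and 3378 CPM at 24 h and at 3435, 3742 and 3376 CPM at 48 h. All libraries in doxycycline lay below those at 0 h. It fell by 0.22 at 8 h (SE 0.018, adjusted p = 2.78e-09), by 0.37 at 24 h (SE 0.022, adjusted p = 5.38e-12) and by 0.29 at 48 h (SE 0.028, adjusted p = 4.34e-09) in edgeR. MT-CO3 fell by 0.20, 0.31 and 0.25 at the same times, and MT-ND5 by 0.14, 0.28 and 0.19, where MT-ND5 was not called by DESeq2 at 8 and 48 h. MT-ND4 was at 5673, 5709 and 5394 CPM at 0 h, 5247, 5756 and 5257 at 8 h, 4404, 4977 and 4592 at 24 h and 5077, 5996 and 5489.7 at 48 h. It fell by 0.26 at 24 h (SE 0.03, adjusted p = 4.34e-07) in edgeR and overlapped the 0 h libraries at 8 and 48 h.

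MT-ATP6 stood at 2176, 2161 and 2055 CPM at 0 h, 2148, 2299 and 2115 at 8 h, 1953, 2255 and 2043 at 24 h and 2324, 2696 and 2574 at 48 h in C/EBPδ-inducible cells. Its 48 h libraries lay above all those at 0 h, and by edgeR it rose by 0.24 (SE 0.034, adjusted p = 2.26e-06). At 8 and 24 h its log2 fold changes were 0.03 and -0.03, with adjusted p = 0.297 and 0.623 in edgeR. MT-ATP8 and the complex I mRNA MT-ND3 also rose by 48 h, by 0.27 and 0.21, with overlapping libraries for MT-ATP8 and a call that was lost in DESeq2, without C/EBPδ-inducible 0 h replicate 3 and without 48 h replicate 2.

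At 24 h in C/EBPδ-inducible cells 8 of 13 mRNAs were lower and none was higher by edgeR, where 15.5% of all genes were called and 8.14% were called lower, with 8 mRNAs separated from 0 h where 36.5% of all genes did so, and the median of the mRNAs was -0.22. At 48 h 6 mRNAs were lower and 3 higher, where 38.7% of all genes were called, 19.1% higher and 19.5% lower, and 8 mRNAs separated where 55.5% of all genes did so, with a median of -0.08. Of all tested members, 12 of 26 were called at 8 h, 12 of 26 at 24 h and 18 of 26 at 48 h. In a model of all 24 libraries the count at 8 h was 3, and in DESeq2 it was 5.

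The changes from 0 h differed between the lines at 8 and 24 h. An edgeR interaction of line and time asks whether the change in C/EBPδ-inducible cells exceeds that in CTRL cells, and a positive value stands for a smaller fall or a larger rise in the inducible cells. At 8 h, 10 of 13 mRNAs had a positive interaction and none a negative one, where 1.66% of all genes were called and 0.887% were called positive and 0.77% negative. With all wells 144 genes were positive and 125 negative of 16228, and without CTRL 8 h replicate 3 these were 705 and 491 of 16645. The median interaction of the 13 mRNAs was 0.28 on the log2 scale, and that of all genes -0.008. MT-ND2 (log2 0.28, SE 0.043, adjusted p = 0.00126), MT-CO1 (log2 0.28, SE 0.041, adjusted p = 0.00104) and MT-ND4 (log2 0.34, SE 0.053, adjusted p = 0.00158) were called by edgeR in every setting and without each library in turn. MT-ND4L had the largest value among the called mRNAs, 0.54 (SE 0.11, adjusted p = 0.008) by edgeR, and lost its call in 9 of the 12 fits that each left out 1 library. The mRNAs not called were MT-ND3, MT-ATP8 and MT-ND6, at 0.43, 0.35 and 0.12.

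The count of 10 at 8 h depended on single libraries. Leaving out any 1 of the libraries at 0 h, CTRL 8 h replicate 2 or any 1 of the C/EBPδ-inducible libraries at 8 h left 3 to 6 called, and a model of all 24 libraries called 4. At 24 h, 7 of 29 members had a called interaction, again all positive, where 5.84% of all genes were called, 2.86% positive and 2.98% negative. They were MT-ND1 (log2 0.28, SE 0.049, adjusted p = 0.000292), MT-CO1 (log2 0.19, SE 0.032, adjusted p = 0.000153), MT-CYB, MT-CO3, MT-ND4, MT-ND5 and MT-TT, at 0.20, 0.19, 0.19, 0.17 and 0.55 by edgeR. Without CTRL 0 h replicate 2 or 3, CTRL 24 h replicate 1 or 3, C/EBPδ-inducible 0 h replicate 1 or 3 or C/EBPδ-inducible 24 h replicate 2 the count was 2 to 4, and in the model of all 24 libraries it was 0. At 48 h edgeR called 0 of 29 members, where 5.54% of all genes were called, 2.83% positive and 2.72% negative. By edgeR 8 members had an unadjusted p under 0.05, DESeq2 called 0, and edgeR without the filter called 10. The interactions share the 0 h libraries with the comparisons within each line, and the 0 h libraries of both lines enter all 3.

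**Figure D4:**
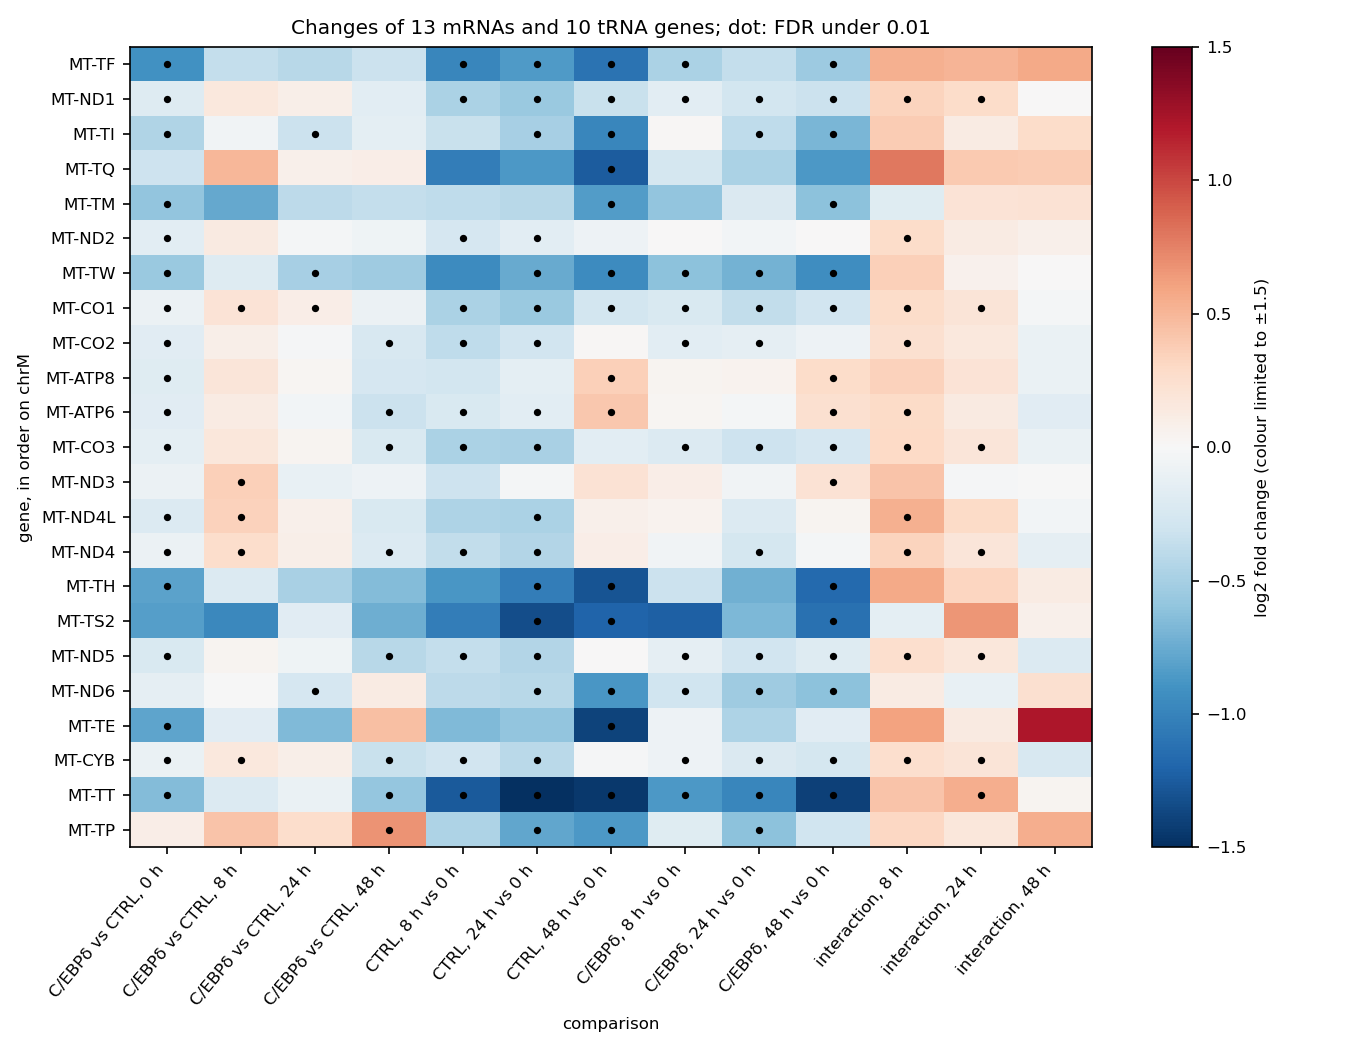
Log2 fold changes (colour, limited to ±1.5) of 13 mRNAs and 10 tRNA genes in the order of chrM (y axis) in 4 comparisons of the lines, 6 comparisons with 0 h and 3 interactions (x axis), with a dot where edgeR's adjusted p was under 0.01. The falls in CTRL cells at 8 and 24 h run over nearly all genes, and the interactions at 8 h are positive for all 13 mRNAs, 10 of them called.

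Before doxycycline, C/EBPδ-inducible cells had less of most mitochondrial RNAs than CTRL cells. At 0 h 11 of 13 mRNAs were lower by edgeR and none was higher, where 43.9% of all genes were called and 23.9% were called lower, with a median of -0.15 for the mRNAs and 0.010 for all genes. The largest difference of an mRNA was that of MT-ND5, at 3220.1, 3409 and 3289.9 CPM in CTRL and 2882, 2911 and 2749.9 CPM in C/EBPδ-inducible libraries. These libraries did not overlap, and the log2 fold change was -0.22 (SE 0.024, adjusted p = 1.19e-07) in edgeR. MT-ND1 differed by -0.19 (SE 0.021, adjusted p = 3.28e-07) and MT-CO2 by -0.17 (SE 0.023, adjusted p = 4.52e-06), and MT-ND3 and MT-ND6 were not called. For 10 mRNAs every C/EBPδ-inducible library lay below every CTRL library, where 60.2% of all genes separated in either direction. Of all 29 members tested 20 were lower, which became 13 without C/EBPδ-inducible 0 h replicate 3 and 10 in a model of all 24 libraries. Of the 20, 9 were tRNA genes, and 7 of these belong to the 10 tested in all comparisons. The others, MT-TL1 and MT-TD, are low, and MT-TL1 passed the filter on low counts through the CTRL libraries, which favoured its direction.

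At 8 h the inducible cells had more of some mRNAs. By edgeR 5 mRNAs were higher in C/EBPδ-inducible cells, namely MT-CO1 (log2 0.20, SE 0.037, adjusted p = 0.0011), MT-ND4 (log2 0.26, SE 0.045, adjusted p = 0.000655), MT-ND3 (0.35), MT-ND4L (0.34) and MT-CYB (0.16), where 31.8% of all genes were called and 14.3% were called higher. In 11 of 13 mRNAs every C/EBPδ-inducible library lay above every CTRL library, where 54.4% of all genes separated in either direction. Of 27 members these 5 were called, and the count was 2 without any 1 of the C/EBPδ-inducible 8 h libraries, 3 without CTRL 8 h replicate 2, 8 without CTRL 8 h replicate 1 and 9 without CTRL 8 h replicate 3. MT-CO1 and MT-ND4 stayed called in each of these fits.

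At 24 h few of these genes differed between the lines by edgeR. MT-CO1 was at 3061, 3141 and 3005 CPM in CTRL and 3179, 3336 and 3378 CPM in C/EBPδ-inducible libraries, without overlap and with a log2 fold change of 0.10 (SE 0.024, adjusted p = 0.000959) in edgeR, a call lost in the model of all 24 libraries, in an analysis of variance on log2(CPM + 1), without CTRL 24 h replicate 3 and without C/EBPδ-inducible 24 h replicate 3. MT-ND6 was at 508, 472 and 443 CPM in CTRL and 403, 364 and 431 CPM in C/EBPδ-inducible libraries, and its edgeR log2 fold change was -0.25 (SE 0.044, adjusted p = 2.8e-05), a call that DESeq2 did not make. Together 5 of 27 members were called, 1 higher and 4 lower, where 46.9% of all genes were called, 21.5% higher and 25.3% lower, and the median of the 13 mRNAs was 0.03. Of the 4 lower, 3 were tRNA genes, and 2 of these belong to the 10 tested in all comparisons. The third was MT-TL1, with 13, 15 and 15 counts in CTRL and 9, 4 and 4 in inducible libraries. It passed the filter on low counts through the CTRL libraries, so the filter favoured its direction. The libraries of 3 mRNAs separated, where 61.8% of all genes did. The count was 2 without CTRL 24 h or C/EBPδ-inducible 24 h replicate 3, 11 without C/EBPδ-inducible 24 h replicate 1 and 9 without its replicate 2, and 1 in DESeq2.

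At 48 h C/EBPδ-inducible cells had less of 6 mRNAs by edgeR and more of none, with a median of -0.23, where 38.3% of all genes were called and 20.7% were called lower. MT-ND5 stood at 3432, 3529 and 3039 CPM in CTRL and 2333, 2728 and 2464 CPM in C/EBPδ-inducible libraries, which did not overlap, and differed by -0.41 (SE 0.058, adjusted p = 4.61e-05). MT-CYB, MT-ATP6, MT-CO2, MT-CO3 and MT-ND4 differed by -0.33, -0.32, -0.25, -0.23 and -0.20, with overlapping libraries for MT-ND4. The call of MT-CO3 was lost without C/EBPδ-inducible 48 h replicate 1 or 3, and that of MT-ND4 without either of these or CTRL 48 h replicate 1 or 2. The libraries of 5 mRNAs separated, where 57.1% of all genes did. Over the members 8 of 25 were called, 1 of them higher.

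MT-ND6, the complex I mRNA made from the opposite strand, was lower at 24 and 48 h than at 0 h in both lines. Its values, like those of the tRNA genes on the minus strand, depend on the strand setting of the counting. That setting is not given in the sources used here. In CTRL cells it was at 587, 592 and 727 CPM at 0 h, 410.1, 519 and 493 at 8 h, 508, 472 and 443 at 24 h and 337, 372 and 338 at 48 h. The inducible cells had it at 597, 613 and 533 CPM at 0 h, 426, 531 and 462 at 8 h, 403, 364 and 431 at 24 h and 322, 442 and 376 at 48 h. Every library in doxycycline lay below those at 0 h of its line, and the lowest of all was C/EBPδ-inducible 48 h replicate 1. At 8 h the edgeR log2 fold change of MT-ND6 was -0.40 (SE 0.095, adjusted p = 0.0409) in CTRL cells and -0.30 (SE 0.053, adjusted p = 8.87e-05) in C/EBPδ-inducible cells, the latter not called by DESeq2. At 48 h MT-ND6 fell by 0.87 in CTRL cells (SE 0.072, adjusted p = 2.25e-06) and by 0.62 in C/EBPδ-inducible cells (SE 0.063, adjusted p = 6.44e-09) by edgeR, and the interaction at 48 h was 0.24 (SE 0.13, adjusted p = 0.273). Relative to the sum of the 12 other mRNAs, which does not depend on library scaling, MT-ND6 was 1.87 ± 0.25% (SD, n = 3) at 0 h and 1.04 ± 0.071% at 48 h in CTRL cells, and 1.87 ± 0.089% and 1.31 ± 0.12% in C/EBPδ-inducible cells. At 24 h this share was 1.83 ± 0.093% in CTRL cells, within the SD at 0 h, and 1.51 ± 0.19% in C/EBPδ-inducible cells.

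The shares of single genes in the pool of 13 mRNAs are given as a description, with no test. The share of MT-ATP6 went from 6.87 ± 0.11% at 0 h to 9.34 ± 0.26% at 48 h in CTRL cells and from 6.74 ± 0.055% to 8.65 ± 0.22% in C/EBPδ-inducible cells (SD, n = 3). MT-ND1 went from 10.4 ± 0.063% to 8.46 ± 0.37% and from 10.1 ± 0.086% to 8.76 ± 0.14%, and MT-CO1 from 13 ± 0.12% to 11.1 ± 0.29% and from 13.5 ± 0.22% to 12.0 ± 0.44%. MT-ND4 stood at 17.1 ± 0.029% and 18.8 ± 0.12% in CTRL cells and at 17.7 ± 0.069% and 18.9 ± 0.31% in C/EBPδ-inducible cells.

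The tRNA genes had few counts, and 11 of the 22 had a median under 10 counts per library. MT-TK and MT-TN, whose sequences are given above, had none, which allows up to 3 counts in a library or 0.13 to 0.236 CPM by counting error alone. Another 6 were tested in no comparison and 4 in some, and the 10 tested in all had medians of 14.5 (MT-TS2, serine) to 247.5 counts (MT-TI, isoleucine). In CTRL cells all 10 were lower at 48 h than at 0 h by edgeR, with a median log2 fold change of -1.15, and every 48 h library lay below every 0 h library in each of them, where 30% of all genes were called, 14.7% lower, and 52.7% separated. In the inducible cells 7 of the 10 were lower at that time, with a median of -0.77, and none was higher, where 38.7% of all genes were called and 19.5% were lower.

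A small RNA made outside mitochondria was also lower at 48 h in both lines. Of 4 such genes in the table only RN7SL2, an RNA of the signal recognition particle, had counts. It was at 16.2, 16.6 and 21.2 CPM at 0 h and 11.8, 7.87 and 9.59 CPM at 48 h in CTRL cells, and at 19.0, 17.6 and 23.1 CPM and 13.7, 12.0 and 15.9 CPM in inducible cells, with no overlap in either line. Its edgeR log2 fold changes at 48 h were -0.88 (SE 0.14, adjusted p = 0.000365) and -0.54 (SE 0.098, adjusted p = 5.48e-05), the latter not called in the model of all 24 libraries. At the earlier times its log2 fold changes were 0.14 at 8 h and 0.06 at 24 h in CTRL cells, neither called, and -0.92 and 0.56 in inducible cells, the first called lower and the second higher. What RN7SL2 shares with the tRNA values was not tested.

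MT-TT fell at every time in both lines, and each of these calls was made in every setting tried. In CTRL cells it was at 21.9, 22.1 and 22.6 CPM at 0 h, 7.82, 9.81 and 9.74 at 8 h, 7.60, 8.85 and 6.57 at 24 h and 8.58, 6.99 and 8.74 at 48 h. The inducible cells had it at 13.2, 15.5 and 14.0 CPM at 0 h, 8.31, 7.70 and 7.54 at 8 h, 7.05, 7.24 and 7.27 at 24 h and 6.11, 5.31 and 4.90 at 48 h. No library in doxycycline reached the 0 h libraries of its line, and those of C/EBPδ-inducible cells at 0 h lay below those of CTRL cells. By edgeR MT-TT fell in CTRL cells by 1.26 at 8 h (SE 0.099, adjusted p = 5.22e-05), 1.53 at 24 h and 1.45 at 48 h, and in C/EBPδ-inducible cells by 0.86 (SE 0.096, adjusted p = 2.69e-07), 0.98 and 1.4. At 0 h it differed between the lines by -0.65 (SE 0.072, adjusted p = 2.97e-07).

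MT-TF fell at 8 h in both lines by edgeR, a call lost in CTRL cells without any 1 of the 0 h libraries and in C/EBPδ-inducible cells by DESeq2, without 0 h replicate 1 or 3 and without 8 h replicate 1 or 2. It was at 16.4, 16.2 and 19.5 CPM in CTRL cells at 0 h, and the later CTRL libraries lay between 7.33 and 11.6 CPM. The inducible cells had it at 11.2, 7.69 and 9.23 CPM at 0 h, below all CTRL libraries of that time, and between 5.00 and 10.2 CPM later. Its edgeR log2 fold change at 48 h was -1.11 (SE 0.11, adjusted p = 1.03e-05) in CTRL cells and -0.54 (SE 0.15, adjusted p = 0.00419) in C/EBPδ-inducible cells, where the libraries overlapped and the call was lost in DESeq2, without 0 h replicate 1 or 3 and without 48 h replicate 1 or 2. Before doxycycline it differed between the lines by -0.91 (SE 0.11, adjusted p = 1.03e-06). MT-TP, the tRNA for proline on the minus strand, was the only tRNA gene called higher in C/EBPδ-inducible cells, at 48 h, with 7.28, 6.34 and 5.42 CPM in CTRL and 8.49, 11.1 and 10.7 CPM in C/EBPδ-inducible libraries. These did not overlap, and the log2 fold change was 0.67 (SE 0.13, adjusted p = 0.000865) in edgeR.

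Of the other named tRNA genes, MT-TI, MT-TM, MT-TW, MT-TH, MT-TS2 and MT-TE, for isoleucine, methionine, tryptophan, histidine, serine and glutamate, and MT-TQ for glutamine fell in CTRL cells at 48 h, with log2 fold changes of -0.97, -0.83, -0.94, -1.29, -1.20, -1.39 and -1.25. The call of MT-TQ was lost in DESeq2 and without CTRL 0 h replicate 1 or 3 or CTRL 48 h replicate 3, and that of MT-TS2 without CTRL 0 h replicate 1 or 2 or CTRL 48 h replicate 2 or 3. The inducible cells had lower MT-TI, MT-TM, MT-TW, MT-TH and MT-TS2 at 48 h, with log2 fold changes of -0.69, -0.61, -0.93, -1.16 and -1.12, where MT-TM and MT-TS2 were not called by DESeq2 and MT-TH lost its call without 0 h replicate 3 or 48 h replicate 1. MT-TE, at 2.34, 1.97 and 1.69 CPM at 0 h and 1.70, 1.81 and 1.87 CPM at 48 h, overlapped between the times there. Before doxycycline 7 of the 10 tRNA genes tested in all comparisons were lower in C/EBPδ-inducible cells and none was higher, where 43.9% of all genes were called and 23.9% were lower. With those tested in some comparisons the count was 9 of 14, among them MT-TL1 and MT-TD, which the rule for named genes does not cover and which were looked at after their values were seen. Both are low, with medians of 6 and 7 counts. MT-TL1 had 15, 13 and 11 counts in CTRL and 6, 7 and 2 in inducible libraries at 0 h. It passed the filter on low counts through the CTRL libraries, so the filter favoured its direction.

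**Figure D5:**
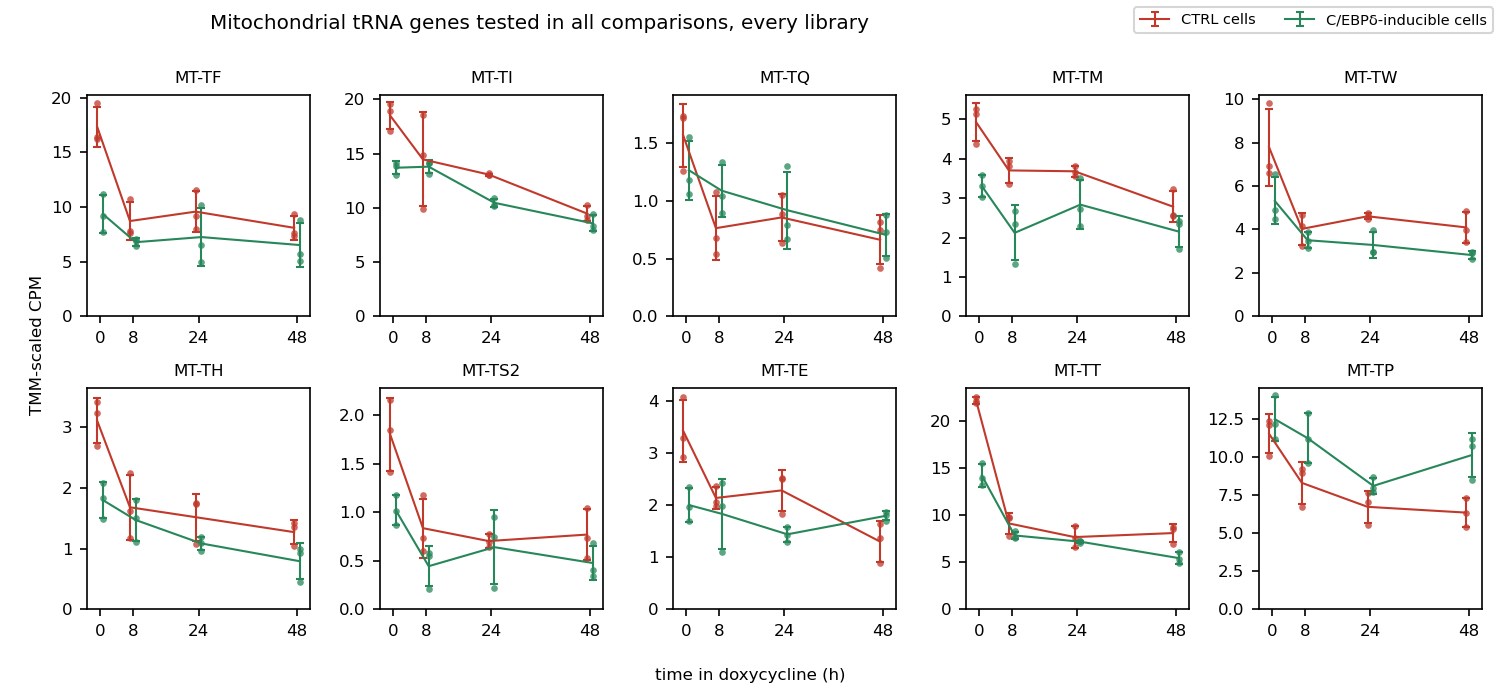
TMM-scaled CPM (y axes, from 0) of the 10 tRNA genes tested in all comparisons against hours in doxycycline, with 1 point per library and lines through group means with SD bars (n = 3 per group). All 10 fall in CTRL cells, MT-TT from 22.2 ± 0.344 to 8.10 ± 0.97 CPM, and MT-TP and MT-TE are the panels in which the inducible libraries all lie above the CTRL libraries at 48 h, of which edgeR called MT-TP.

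The rRNAs, which the library kit removes, varied between wells of 1 group by far more than the mRNAs. MT-RNR2, the rRNA of the large subunit, was at 118, 72.2 and 749 CPM in CTRL cells at 0 h, 130.0, 194 and 1277 at 8 h, 161, 237 and 214 at 24 h and 256, 238 and 544 at 48 h. In C/EBPδ-inducible cells it was at 126, 85.6 and 132 CPM at 0 h, 55.9, 71.4 and 5158 at 8 h, 310.1, 73.5 and 162 at 24 h and 297, 242 and 426 at 48 h. Replicate 3 was the highest in 6 of 8 groups, and C/EBPδ-inducible 8 h replicate 3 stood furthest out. MT-RNR1, the rRNA of the small subunit, moved with it, and MT-RNR2 had 4.10 to 6.22 times the CPM of MT-RNR1 in every library, a ratio not corrected for length.

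By edgeR both rRNAs were higher in C/EBPδ-inducible cells at 8 h than at 0 h, MT-RNR1 by 3.78 (SE 0.99, adjusted p = 0.00404) and MT-RNR2 by 3.93 (SE 0.98, adjusted p = 0.00259), but without C/EBPδ-inducible 8 h replicate 3 they were lower, at -1.27 and -0.85, and called. Leaving out any 1 of the C/EBPδ-inducible 0 h libraries also ended the call. At 48 h against 0 h, where the libraries of these cells did not overlap, MT-RNR1 rose by 1.4 (SE 0.15, adjusted p = 1.35e-08) and MT-RNR2 by 1.48 (SE 0.13, adjusted p = 5.8e-10), and a model of all 24 libraries called neither. In CTRL cells the edgeR log2 fold changes at 24 h, -0.76 for MT-RNR1 and -0.62 for MT-RNR2, became 0.96 and 1.10 without CTRL 0 h replicate 3, both called. The efficiency of rRNA removal in each well was not measured here, and its part in these values was not tested.

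Nuclear genes that serve mitochondria were compared in the same fits. In CTRL cells at 8 h edgeR called none of 74 tested nuclear-encoded subunits of complexes I, III, IV and V, none of 20 genes of mitochondrial DNA transcription and replication, none of 38 of mitochondrial RNA processing and decay, none of 18 of mitochondrial translation and insertion, none of 7 biogenesis regulators and none of 15 chaperones and proteases, where only 1.7% of all genes were called, so that counts of 0 lie near the share over all genes. Their median log2 fold changes at 8 h were -0.04, 0.02, -0.01, -0.02, 0.02 and -0.03, beside -0.36 for the mitochondrial mRNAs. At an unadjusted p under 0.05 there were 11, 3, 6, 1, 2 and 4 genes of these lists. DESeq2 called 0, 0, 0, 0, 1 and 1, edgeR without the filter 0, 0, 0, 0, 1 and 3, and the model of all 24 libraries 5, 1, 2, 0, 1 and 3. At 24 h in CTRL cells 1 of the 74 nuclear subunits was higher and 0 were lower, where 6.06% of all genes were called. In C/EBPδ-inducible cells 18 were higher and 0 were lower at 24 h, where 15.5% of all genes were called and 7.33% were higher, with a median of 0.10, at the time when 8 of 13 mitochondrial mRNAs were lower. At 48 h CTRL cells had 5 nuclear subunits higher and 4 lower, where 30% of all genes were called, and inducible cells had 17 higher and 10 lower, near the 38.7% called over all genes.

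At 24 h C/EBPδ-inducible and CTRL cells differed in some genes of these lists, in a comparison where 46.9% of all genes were called. Of the 20 genes of transcription and replication 6 were higher and 3 lower, among them TFB1M, a methyltransferase of mitochondrial rRNA, at 21.1 ± 0.186 against 14.3 ± 0.758 CPM (log2 fold change 0.56), TWNK, the mitochondrial helicase, at 89.2 ± 3.70 against 67.5 ± 1.68 CPM, and SSBP1, which binds single-stranded mitochondrial DNA, at 119 ± 5.49 against 147 ± 4.53 CPM. Of the 38 genes of RNA processing 11 were higher and 9 lower. The higher ones included GTPBP3 at 33.7 ± 2.05 against 25.1 ± 0.966 CPM and PUS1, a pseudouridine synthase, at 57.6 ± 2.15 against 44 ± 0.387 CPM. The lower ones included TRUB2 and FASTKD1, at 44.1 ± 1.06 against 67.1 ± 0.811 CPM and 26.1 ± 1.01 against 39.3 ± 2.28 CPM. Of 18 translation genes 2 were higher and 4 lower. COA3, an assembly factor of complex IV, was higher, at 34.1 ± 0.899 against 24.0 ± 0.214 CPM. MTRF1 was lower, at 6.48 ± 0.456 against 10.0 ± 1.13 CPM, and so was MRRF, the ribosome recycling factor, at 38.3 ± 2.58 against 53.8 ± 0.655 CPM. Of 7 biogenesis regulators 2 were higher, PPRC1 at 248 ± 8.81 against 204 ± 3.95 CPM and PPARGC1B at 48.0 ± 3.05 against 41.7 ± 0.625 CPM, the latter not called without CTRL 24 h replicate 2 or C/EBPδ-inducible 24 h replicate 3, and 1 was lower, YY1. Of 15 chaperones and proteases 6 were higher, led by AFG3L2, an inner-membrane protease, at 323 ± 12.4 against 251 ± 3.64 CPM, and 2 were lower, the chaperonins HSPD1 and HSPE1.

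At 24 h against 0 h within C/EBPδ-inducible cells, TFB1M was at 21.1 ± 0.186 against 17.8 ± 0.946 CPM and SSBP1 at 119 ± 5.49 against 107 ± 3.68 CPM, both called higher by edgeR but not by DESeq2, nor without C/EBPδ-inducible 0 h replicate 2 or 3 or 24 h replicate 2 or 3, TFB1M being lost without 24 h replicate 1 too. MTO1, which modifies mitochondrial tRNAs, was at 85.2 ± 2.33 against 70.0 ± 3.10 CPM, and ELAC2, which cuts the 3′ ends of tRNAs, at 200.1 ± 10.4 against 225 ± 5.63 CPM, the latter called lower with a log2 fold change of -0.16 in edgeR that was lost without 0 h replicate 1 or 3 or 24 h replicate 3. LONP1, a protease of the matrix, was at 278 ± 15.3 against 226 ± 5.28 CPM, called higher, and HSPE1 at 91.0 ± 5.19 against 104 ± 6.05 CPM, called lower but not without 0 h replicate 1 or 3 or 24 h replicate 2 or 3. None of the 18 translation genes and none of the 7 regulators was called there by edgeR or DESeq2, with 5 and 3 at an unadjusted p under 0.05, and edgeR without the filter called 1 and 0.

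Copies of mitochondrial genes in the nuclear genome can take reads that match both. The table held 391 such copies, of which 109 had a count and 14 a mean of 10 counts or more. The most abundant were MTND4P12 on chromosome 5 (95.8% identical to MT-ND4 over 1376 bases, mean of 8242 counts), MTATP6P1 (98.5% identical to MT-ATP6, mean of 3144 counts), MTND2P28 (98.4% identical to MT-ND2, mean of 2301 counts) and MTCO1P12 (98.6% identical to MT-CO1), the last 3 next to each other on chromosome 1. MTND4P12 had log2 fold changes of -0.37 at 8 h and -0.43 at 24 h in CTRL cells, beside -0.36 and -0.44 for MT-ND4. For MTATP6P1 at 48 h they were 0.38 in CTRL and 0.26 in C/EBPδ-inducible cells, beside 0.40 and 0.24 for MT-ATP6. Other copies had values farther from those of their gene, and these differences were not tested. MTCO1P12 had log2 fold changes of -0.51 at 8 h in inducible cells and -0.43 at 48 h in CTRL cells, both called, beside -0.22 and -0.27 for MT-CO1. MTND2P28 was called higher at 8 h in inducible cells, at 0.20, beside 0.00089 for MT-ND2, which was not called. How reads that match both were assigned is not given in the sources used here, so the values of a copy and of its mitochondrial gene may not be independent.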

How the data were processed

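RNA was measured in 24 libraries, 3 wells in each of 8 groups of line and time. Per the labels and the study's methods, the authors made rRNA-depleted libraries from total RNA (KAPA RNA HyperPrep with RiboErase), sequenced reads of 50 bp, trimmed them with Trimmomatic, aligned them with HISAT2 to GRCh38 with Ensembl 84 and counted genes with HTSeq. The submitters' processing notes give Trimmomatic 0.36 and HISAT2 2.3.4.3, and the methods give other versions of both. The authors deposited the values as raw counts per gene, not normalized. The strand setting and the treatment of reads with several matches are not given in the sources used here. Rows were named through GENCODE release 44, which matched 56558 of 60675 identifiers, and all 37 chrM genes were found.

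Counts were tested with edgeR 4.0.16 in R 4.3.3 (quasi-likelihood test, TMM, its own filter on low counts) on the groups compared, with Benjamini-Hochberg adjustment over all genes and a cut-off of 0.01. CPM are counts scaled to library size times the TMM factor. SE are taken from the log2 fold change and the F statistic. Alternatives were DESeq2 1.42.0, median-ratio size factors, library sizes without chrM genes, no filter, a minimum of 10 counts, a model of all 24 libraries, an analysis of variance on log2(CPM + 1), a replicate block and leaving out each library. The test was checked on simulated data with a single dispersion and with changes larger than most of those of the mRNAs here. That check does not cover changes of their size. Same-numbered libraries deviated together in each pair only for CTRL cells at 24 h against 0 h, with correlations across genes of 0.122, 0.122 and 0.161, where the block gave the same count. Totals of 12731237 to 22598595 counts limit precision mainly for the tRNA genes, and floors cover counting error only. The members and lists were chosen with earlier results of these data known. The 13 mRNAs, the 2 rRNAs and the tRNA genes tested in all 13 comparisons are named, and from each nuclear list at most 2 called genes in each direction with the largest change and no overlap. For nuclear copies the 4 most abundant are named.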

Additional observations from a re-analysis of the deposited data

Results flagged for a closer look

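The change from 0 h differed between the lines for 10 mRNAs at 8 h and for 6 mRNAs and 1 tRNA gene at 24 h, by an edgeR interaction test with an adjusted p under 0.01. At 8 h the interactions, as the change in C/EBPδ-inducible cells minus that in CTRL cells on the log2 scale, were 0.24 for MT-CO2, 0.25 for MT-CYB, 0.28 for MT-ND2, 0.25 for MT-ND5, 0.28 for MT-CO1, 0.34 for MT-ND4, 0.34 for MT-ND1, 0.28 for MT-ATP6, 0.30 for MT-CO3 and 0.54 for MT-ND4L. At 24 h they were 0.20 for MT-CYB, 0.17 for MT-ND5, 0.19 for MT-CO1, 0.19 for MT-ND4, 0.28 for MT-ND1, 0.19 for MT-CO3 and 0.55 for MT-TT. The lines already differed at 0 h, and these libraries enter the interactions at both times.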

How the results depend on the processing

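Counts are of called members. In the model of all 24 libraries, 10 were called between the lines at 0 h, 1 at 24 h, 3 in C/EBPδ-inducible cells at 8 h, and 4 and 0 for the interactions at 8 and 24 h. Without the filter on low counts, 12 and 14 were called between the lines at 8 and 24 h, 21 in CTRL cells at 8 h, and 14 and 10 for the interactions at 24 and 48 h. A minimum of 10 counts left 3 between the lines at 8 h. DESeq2 called 1 between the lines at 24 h and 5 in C/EBPδ-inducible cells at 8 h, and the analysis of variance called 1 between the lines at 24 h. With its counts divided by the length without shared bases, MT-ATP8 was at 3341 CPM per kb. A replicate block gave 7 in CTRL cells and 4 for the interaction at 8 h, and moved no other count of called members by over 1.5 times. In CTRL cells at 8 h against 0 h the correlations of same-numbered libraries were -0.261, -0.0414 and -0.0048.

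Leaving out each library in turn gave 13 to 21, 2 to 9, 2 to 11 and 6 to 9 called between the lines at 0, 8, 24 and 48 h. It gave 7 to 15, 16 to 19 and 12 to 18 in CTRL cells at 8, 24 and 48 h, 8 to 12, 10 to 17 and 14 to 17 in C/EBPδ-inducible cells, and 3 to 11, 2 to 9 and 0 to 1 for the interactions.

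The rRNAs changed sign when 1 library was left out, with these lowest and highest log2 values for MT-RNR1 and MT-RNR2. Between the lines they ran from -1.86 to 0.31 and from -1.94 to 0.25 at 0 h, and from -3.34 to 3.57 and from -3.07 to 3.43 at 8 h. In CTRL cells MT-RNR1 ran from -1.14 to 2.42 at 8 h, and at 24 h the values were -1.22 to 0.96 and -1.09 to 1.10. In C/EBPδ-inducible cells at 8 h they were -1.27 to 4.36 and -0.85 to 4.51. The interactions spanned -1.96 to 4.94 and -1.61 to 4.89 at 8 h, -0.53 to 1.64 and -0.42 to 1.77 at 24 h, and -0.59 to 1.66 and -0.39 to 1.82 at 48 h. MT-ND4L between the lines at 24 h ran from -0.051 to 0.168. The cause was not tested.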
